A study of Mus musculus with 8 samples.

Results

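The genes described here encode the receptors, neuropilin co-receptors and ligands of vascular endothelial growth factor (VEGF) signaling: Kdr, Flt1, Flt4, Nrp1, Nrp2, Vegfa, Vegfb, Vegfc and Pgf. Their members in these data were the accessible regions (peaks) whose annotated gene in the deposited peak table was 1 of these 9 symbols, which gave 90 of 58522 peaks, for 9 of 17780 genes. ATAC-seq, in which a transposase cuts and tags open chromatin, was run on liver sinusoidal endothelial cells (LSECs) isolated from mice 12 weeks old. The 4 MafLSEC-KO libraries came from Clec4g-iCre tg/wt mice with Maf fl/fl, in which a Cre recombinase transgene driven by Clec4g sequences removes floxed Maf in LSECs. The 4 control libraries came from littermates without the transgene (Clec4g-iCre wt/wt) that carried Maf fl/fl or fl/wt, so that some controls also had both floxed alleles. Isolation was by collagenase digestion, a density gradient and magnetic selection for CD146, which is also present on endothelial cells of larger vessels. The labels name 3 mice for the isolation and the methods describe pooled livers, so the p-values measure the spread between these libraries. In bulk chromatin, fewer cells of a type cannot be told apart from less open chromatin per cell.

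VEGFA is the main ligand of KDR (VEGFR2), the receptor that carries most of the mitogenic and permeability signal in endothelial cells. FLT1 (VEGFR1) binds VEGFA, VEGFB and PGF and, in part as a soluble form, acts as a decoy, while FLT4 (VEGFR3) is the receptor of VEGFC. NRP1 and NRP2 are co-receptors that also bind class 3 semaphorins. LSECs depend on VEGF for their fenestrated state, and they are among the non-lymphatic endothelial cells that keep FLT4.

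The sequences around 4 regions that passed the test are shown first, as examples from receptor, neuropilin and ligand genes. Each is the 300 bases around the peak centre, taken from the plus strand of GRCm38 (mm10) in RefSeq. Capitals mark every match, on either strand, to the motifs TGCTGA (half-site of the large MAF proteins), TGANTCA (AP-1), AGATAA (the GATA factors), ACAGGAA (ETS), GGAATG (TEAD) and ACGTG (hypoxia factors), and to a MEF2 motif. The first 2 regions had more signal in MafLSEC-KO LSECs and the last 2 had less.
Flt1 -61.2 kb (chr5:147787030-147787329): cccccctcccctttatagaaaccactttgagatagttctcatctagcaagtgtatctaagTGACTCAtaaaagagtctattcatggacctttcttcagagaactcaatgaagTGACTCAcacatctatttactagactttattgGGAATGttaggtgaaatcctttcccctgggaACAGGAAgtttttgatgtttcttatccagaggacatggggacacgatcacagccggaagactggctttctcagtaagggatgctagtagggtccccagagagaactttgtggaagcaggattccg
Pgf -8.64 kb (chr12:85185808-85186107): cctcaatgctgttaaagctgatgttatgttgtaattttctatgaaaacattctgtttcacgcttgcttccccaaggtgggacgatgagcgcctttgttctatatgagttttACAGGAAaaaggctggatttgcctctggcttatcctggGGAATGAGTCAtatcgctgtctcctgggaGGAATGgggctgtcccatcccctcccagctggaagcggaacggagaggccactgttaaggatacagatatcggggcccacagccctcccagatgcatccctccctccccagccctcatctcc
Flt4 +6.27 kb (chr11:49615797-49616096): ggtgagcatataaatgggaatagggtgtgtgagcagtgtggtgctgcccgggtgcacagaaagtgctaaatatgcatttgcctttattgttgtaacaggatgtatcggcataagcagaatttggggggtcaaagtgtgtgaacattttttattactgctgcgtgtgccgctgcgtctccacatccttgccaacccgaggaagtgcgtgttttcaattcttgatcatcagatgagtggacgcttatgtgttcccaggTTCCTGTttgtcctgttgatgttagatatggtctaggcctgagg
Nrp2 +17.2 kb (chr1:62720396-62720695): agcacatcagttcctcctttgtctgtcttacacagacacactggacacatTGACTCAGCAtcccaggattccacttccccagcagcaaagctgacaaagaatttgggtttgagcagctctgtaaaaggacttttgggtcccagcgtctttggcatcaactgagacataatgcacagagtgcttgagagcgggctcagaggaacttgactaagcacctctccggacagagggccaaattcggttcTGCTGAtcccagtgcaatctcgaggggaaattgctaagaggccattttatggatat
The Flt1 window held AP-1 matches at positions 61 and 113 counted from its first base, a TEAD match at 145 and an ETS match at 176. In the Pgf window, an ETS match stood at position 112 and TEAD matches at 150 and 179, and the TEAD match at 150 shared its last bases with an AP-1 match at 154. The Nrp2 window had an AP-1 match at position 51 that overlapped a MAF half-site at 55, with a second MAF half-site at 245. The only match in the Flt4 window was an ETS match at position 257. It lies outside the called peak, which is 164 bases wide (chr11:49615865-49616028) and narrower than the window. Over all 58522 windows of the same length, 22.7% held the MAF half-site, 11.5% AP-1, 16.1% GATA, 17.5% ETS, 14.3% TEAD, 4.42% MEF2 and 17.3% the hypoxia motif. A match is a run of letters only, and binding was not measured.

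Total counts in peaks were 6783573 to 11614365 in MafLSEC-KO libraries and 5367124 to 13364062 in controls, with control replicates 1 and 3 the shallowest (5367124 and 5529802) and control replicate 4 the deepest. The Maf promoter peak had 8.36 to 18.4 CPM (reads per 1000000 of the TMM-scaled library total) in MafLSEC-KO libraries and 57.04 to 81.9 CPM in controls (n = 4 each), so every MafLSEC-KO library was below every control. Whether the deleted stretch covers this peak is not given in the sources used here. Among sinusoidal markers, Clec4g, whose sequences drive the transgene, was higher in MafLSEC-KO libraries, while Dnase1l3, Fcgr2b, Stab2 and Lyve1 were lower, of 9 markers tested. Only MafLSEC-KO mice carry that transgene, so its Clec4g sequences and a more open Clec4g locus cannot be told apart. Of 8 pan-endothelial markers only Cldn5 passed the test, and it was lower. Of 6 lymphatic markers only Mmrn1 passed, and it was higher, with 17.2 ± 5.16 CPM in MafLSEC-KO libraries and 6.31 ± 4.18 CPM in controls. Summed signal over the 9 hepatocyte markers was 123 to 139 CPM in MafLSEC-KO libraries and 123 to 140 CPM in controls, with no peak at Alb, Cyp2e1 or Hnf4a. Apoa1 alone made up 92.6 of the mean 132 CPM in MafLSEC-KO libraries and 80.8 of the mean 131 CPM in controls. The median log2 change of the hepatocyte markers tested was -0.26, so the sum mostly describes Apoa1. Over the 8 macrophage markers it was 107 to 122 CPM in MafLSEC-KO libraries and 114 to 136 CPM in controls, with no peak at Vsig4 or Timd4. Over the 8 stellate cell markers it was 60.9 to 71.2 CPM in MafLSEC-KO libraries and 66.0 to 86.4 CPM in controls, with no peak at Lrat. Over the 8 lymphocyte markers it was 54.7 to 75.0 CPM in MafLSEC-KO libraries and 55.6 to 84.5 CPM in controls, with none at Cd3e, Cd79a, Ms4a1 or Nkg7. Over the 6 cholangiocyte markers it was 65.1 to 79.3 CPM in MafLSEC-KO libraries and 58.9 to 82.0 CPM in controls, with none at Krt7, Sox9 or Cdh1. Epcam alone made up 65.9 of the mean 73.5 CPM in MafLSEC-KO libraries and 63.8 of the mean 71.3 CPM in controls. No marker of these last 5 cell types passed the test, and the part of any of them in the results below was not tested. By the study's flow cytometry, MafLSEC-KO isolates held a smaller share of endothelial cells (positive for LYVE1 or CD31) than control isolates. They held a larger share of cells with CD11b, its marker of macrophage contamination. Whether these were the isolates used for ATAC-seq is not stated.

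Placental growth factor (Pgf) was the only 1 of the 9 genes whose summed accessibility differed between the groups. The receptor and neuropilin genes and the other ligands did not pass at the level of the gene, although 6 of the 9 genes had at least 1 peak that did. Tests were made on raw counts with edgeR's quasi-likelihood method over all 17745 genes or 58268 peaks that passed the filter on low counts, and calls are at a Benjamini-Hochberg adjusted p under 0.05. Of the 9 gene sums, 1 was higher and 0 were lower in MafLSEC-KO LSECs. Across all genes 5.65% were called higher, 4.05% lower and 9.69% either way, and the 2 groups lay fully apart at 16.2%. The count of 0 was also 0 at an unadjusted p under 0.05 and with DESeq2.

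**Figure D1:**
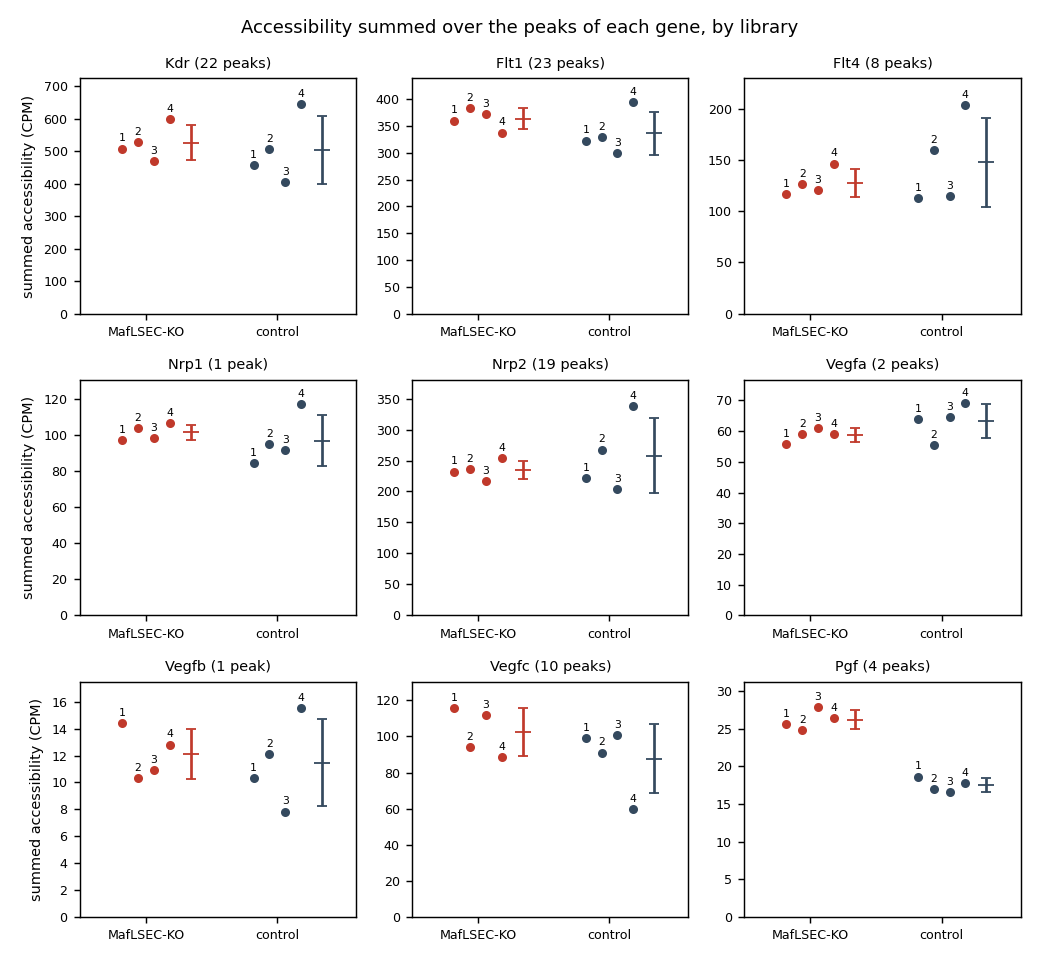
Accessibility summed over all peaks of each gene (y axis, CPM) in the 4 MafLSEC-KO libraries (red, left) and the 4 control libraries (dark, right). Points are libraries labelled by replicate number, and bars are mean ± SD. The groups are apart only at Pgf, where MafLSEC-KO libraries lie between 24.9 and 27.8 CPM and controls between 16.5 and 18.6 CPM, and control replicate 4 stands at one end of its group at every gene but Pgf, the lowest at Vegfc and the highest at the others.

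Pgf signals through FLT1 alone among the VEGF receptors and is known for its rise in growing or diseased vessels. Its 4 peaks summed to 25.6, 24.9, 27.8 and 26.4 CPM in MafLSEC-KO replicates 1 to 4, against 18.6, 17.0, 16.5 and 17.8 CPM in control replicates 1 to 4. Every MafLSEC-KO library was above every control library. The log2 fold change of MafLSEC-KO over control was 0.58 ± 0.122 (SE), with an adjusted p of 0.00852 in edgeR. With any 1 library left out, the log2 change stayed between 0.55 and 0.61 and the adjusted p between 0.00717 and 0.0385.

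The Pgf change lay mostly in a peak upstream of the gene. This intergenic peak (chr12:85185636-85186279), 8.64 kb upstream of the Pgf start site, had 9.30, 10.7, 12.1 and 11.01 CPM in MafLSEC-KO libraries, against 5.09, 5.10, 4.72 and 3.61 CPM in controls. The lowest MafLSEC-KO library was well above the highest control, and raw counts were 63, 116, 116 and 129 in MafLSEC-KO libraries against 28, 41, 27 and 48 in controls. Its log2 change was 1.24 ± 0.209 (edgeR adjusted p = 0.000419), a fold of 2.37, and the adjusted p was at most 0.00277 with any 1 library left out. The next protein-coding gene from this peak was Eif2b2, with its start 33.5 kb away. At the Pgf promoter, a narrow peak with few counts had 5.61, 3.78, 3.24 and 3.16 CPM in MafLSEC-KO libraries, against 1.82, 2.61, 1.57 and 2.33 CPM in controls. These groups did not overlap either, but the log2 change of 0.87 ± 0.320 did not pass (adjusted p = 0.0757). The peak 15.6 kb upstream averaged 4.32 CPM in MafLSEC-KO libraries and 3.24 CPM in controls (log2 change 0.45, adjusted p = 0.301). The intronic peak 6.36 kb into the gene was at 7.35 CPM in MafLSEC-KO libraries and 7.37 CPM in controls. So 1 of the 4 Pgf peaks passed, where 15.4% of all peaks did, while 3 of them had groups that lay fully apart, where 19.4% of all peaks did.

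The genes whose sums followed Pgf most closely over the 8 libraries, by Pearson correlation of log2 CPM, were Lep (r = 0.998), Dcp1b (r = 0.995) and Emilin3 (r = 0.992). These libraries share their groups and depths, and 103 genes had r over 0.95, so the value describes likeness only.

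Among the receptors, the sums over all peaks did not separate the groups, while single peaks of each receptor gene did pass. Of the 53 receptor peaks, 3 were higher and 3 were lower in MafLSEC-KO LSECs. Over all 90 member peaks, all of which were tested, 7 were higher and 7 lower, against 8.97% higher, 6.45% lower and 15.4% either way over all peaks. MafLSEC-KO and control values lay fully apart at 15 of the 90, against 19.4% of all peaks. The median log2 change of the 90 was 0.06. Both counts for the members are near the background, so the 14 calls describe single regions and not the gene family. Each of the 6 genes with 4 or more peaks had a called peak, against 61.6% of all genes with 4 or more tested peaks. In 2 of them, Nrp2 and Vegfc, calls went both ways, against 11.2% of such genes. These shares were not matched for the number of peaks, which ran from 4 at Pgf to 23 at Flt1. A gene with more peaks has more chances of a call, so neither share shows an excess for these genes.

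**Figure D2:**
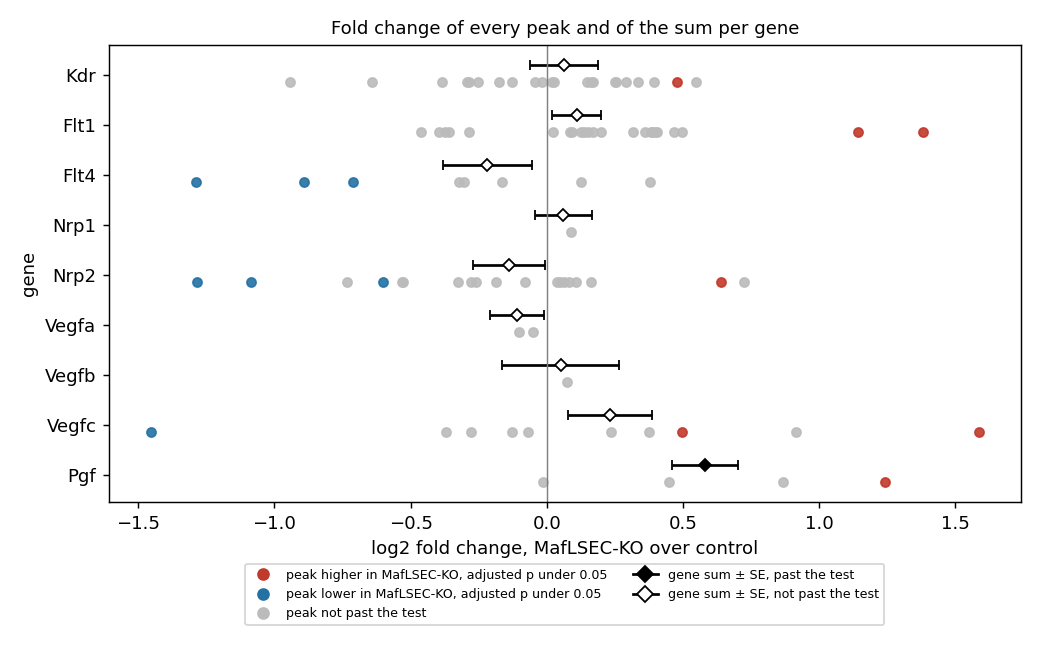
Log2 fold change of MafLSEC-KO over control (x axis) for every peak of each gene (circles) and for the sum per gene (diamonds, with SE). Red and blue circles are the 7 peaks called higher and the 7 called lower, grey circles the other 76, and the only filled diamond is Pgf at 0.58.

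Kdr had 22 peaks over 227 kb and the most signal of the 9 genes. Its sum was 507, 527, 470 and 597 CPM in MafLSEC-KO libraries, against 456, 505, 404 and 645 CPM in controls. The groups overlapped fully, with control replicates holding both the lowest and the highest value, at a log2 change of 0.06 ± 0.125 (edgeR adjusted p = 0.817). At the Kdr promoter peak the level was 38.1, 44.1, 34.9 and 50.0 CPM in MafLSEC-KO libraries, against 30.9, 42.8, 32.0 and 56.5 CPM in controls (log2 change 0.03, adjusted p = 0.938). The Kdr peak with the most counts, 16.1 kb into the gene, averaged 68.6 ± 6.82 CPM in MafLSEC-KO libraries and 74.4 ± 18.6 CPM in controls and did not pass either.

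A single Kdr peak passed. It was annotated to intron 22 of 29 (chr5:75945322-75948269), also covered 98 coding bases of the gene, and was 31.7 kb downstream of the start site. It had 57.5, 59.6, 62.3 and 72.4 CPM in MafLSEC-KO libraries, against 48.9, 45.5, 36.9 and 49.2 CPM in controls, and the groups did not overlap. The log2 change was 0.48 ± 0.124 (adjusted p = 0.0121), and the call was lost without MafLSEC-KO replicate 4, at an adjusted p of 0.0536. The other 21 Kdr peaks had log2 changes between -0.94 and 0.55. The intergenic Kdr peak 116 kb downstream of the start site also had groups that did not overlap, with 5.60 CPM in MafLSEC-KO libraries and 8.79 CPM in controls on average (adjusted p = 0.0703).

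Flt1 had 23 peaks over 207 kb, and 18 of the 23 had a positive log2 change. The sum was 360, 383, 372 and 338 CPM in MafLSEC-KO libraries, against 322, 329, 299 and 394 CPM in controls. Control replicate 4 was the highest of all 8 libraries and the other controls were below every MafLSEC-KO library. At 0.11 ± 0.0895, the log2 change did not pass (adjusted p = 0.512). The sum leaves out 1 peak inside the Flt1 gene body that carried the name Pan3 (log2 change -0.41, edgeR adjusted p = 0.0721). The Flt1 promoter peak held the most counts of its peaks, with 57.8, 67.1, 66.0 and 56.4 CPM in MafLSEC-KO libraries, against 41.1, 51.0, 37.9 and 56.8 CPM in controls. It lay just outside the threshold, with a log2 change of 0.40 ± 0.133 and an adjusted p of 0.0509.

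The Flt1 calls were far from its start site, the first at the upstream end of its set of peaks and the second with 2 uncalled peaks beyond it. The intergenic peak 61.2 kb upstream (chr5:147786954-147787405) had 9.15, 7.28, 8.46 and 6.74 CPM in MafLSEC-KO libraries, against 4.18, 1.62, 3.49 and 3.01 CPM in controls. No control library reached the lowest MafLSEC-KO library, and raw counts were 62, 79, 81 and 79 in MafLSEC-KO libraries against 23, 13, 20 and 40 in controls. This was a log2 change of 1.38 ± 0.270 (adjusted p = 0.00151), a fold of 2.61. The next protein-coding gene was Pomp, with its start 73.3 kb from the peak. The second peak (chr5:147586263-147586492) lay in intron 20 of 29 over a MIR element, an old interspersed repeat, 140 kb downstream of the start site. There the MafLSEC-KO libraries had 5.75, 6.27, 6.69 and 5.97 CPM, against 3.09, 3.23, 2.62 and 2.33 CPM in controls. The groups were again apart, with a log2 change of 1.14 ± 0.247 (adjusted p = 0.00341). The adjusted p was at most 0.00853 for the upstream peak and 0.0158 for the intronic peak with any 1 library left out.

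Flt4 was the receptor gene with peaks called lower, all annotated to its introns. Its 8 peaks summed to 116, 126, 121 and 146 CPM in MafLSEC-KO libraries, against 113, 159, 115 and 204 CPM in controls. The control values followed their depth, with the shallow replicates 1 and 3 below or near the MafLSEC-KO libraries and the deeper replicates 2 and 4 above them. Their log2 change of -0.22 ± 0.164 did not pass (adjusted p = 0.475). With the log2 total count of each library as a covariate the same sum was called lower (log2 change -0.38, adjusted p = 0.00103), so the outcome for Flt4 depended on how depth was treated. That setting called 11.1% of all genes lower, against 4.05% in the main fit. The peak over the Flt4 start site averaged 33.7 ± 3.35 CPM in MafLSEC-KO libraries and 30.7 ± 6.13 CPM in controls and did not pass (adjusted p = 0.635). The Flt4 peak with the most counts, 3.87 kb into intron 1, averaged 35.4 ± 4.30 CPM in MafLSEC-KO libraries and 39.2 ± 14.6 CPM in controls (adjusted p = 0.626).

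Of the called Flt4 peaks, 2 were in intron 1 of 29. The peak 6.27 kb downstream of the start site (chr11:49615865-49616028) had 1.92, 2.86, 1.04 and 3.75 CPM in MafLSEC-KO libraries, against 3.63, 6.97, 3.67 and 8.88 CPM in controls, with a log2 change of -1.29 ± 0.366 (adjusted p = 0.0210). The groups overlapped, because MafLSEC-KO replicate 4 was above control replicates 1 and 3. The peak 8.97 kb downstream (chr11:49618488-49618819) had 6.64, 5.44, 4.07 and 6.66 CPM in MafLSEC-KO libraries, against 5.99, 12.3, 8.04 and 14.8 CPM in controls (log2 change -0.89 ± 0.263, adjusted p = 0.0260). Here control replicate 1 lay within the MafLSEC-KO range. The third peak was annotated to intron 18 of 29 (chr11:49635958-49636979), 26.8 kb downstream, and covered 219 coding bases. It had 6.64, 5.90, 5.33 and 8.45 CPM in MafLSEC-KO libraries, against 8.90, 11.1, 9.08 and 13.6 CPM in controls, with no overlap (log2 change -0.71 ± 0.214, adjusted p = 0.0297). The call at 6.27 kb was lost without any 1 of MafLSEC-KO replicates 1 and 3 and control replicates 2 and 4 (adjusted p up to 0.0731). The call at 8.97 kb was lost without MafLSEC-KO replicate 2 or 3 or control replicate 2 or 4 (up to 0.0952), and the call at 26.8 kb without MafLSEC-KO replicate 1, 2 or 3 or control replicate 2 or 4 (up to 0.102).

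**Figure D3:**
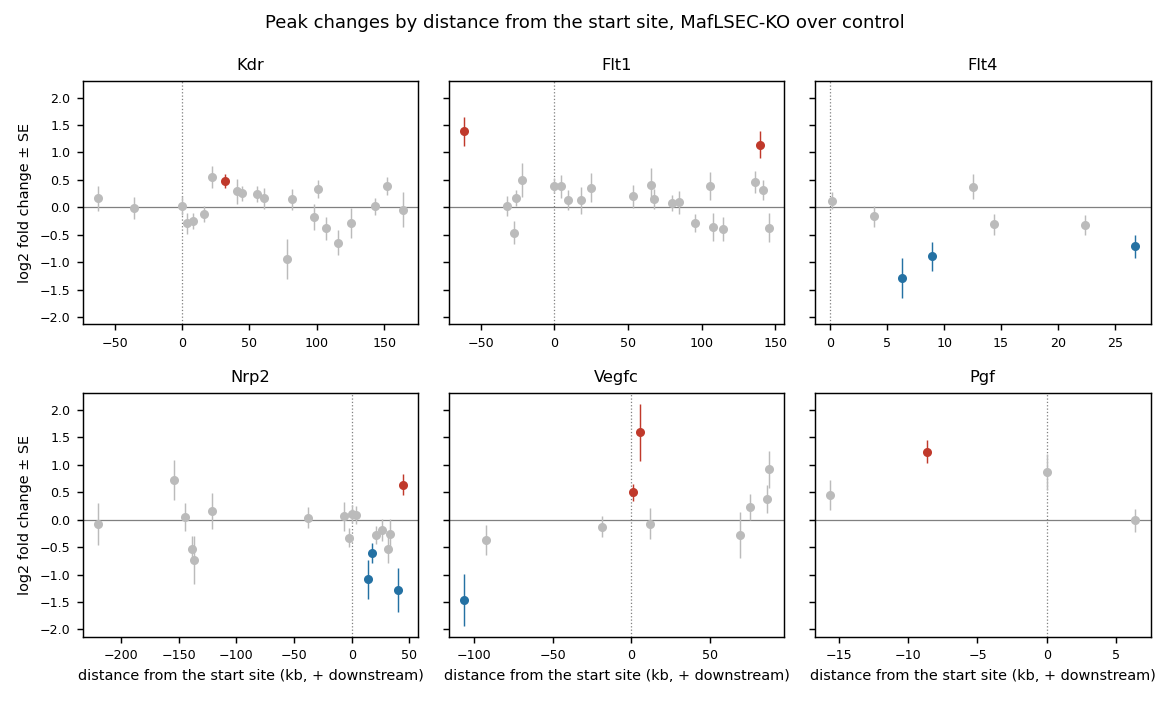
Log2 fold change of MafLSEC-KO over control with its SE (y axis) against the distance from the annotated start site in kb (x axis, positive downstream) for the 6 genes with 4 or more peaks. Red peaks were called higher, blue peaks lower and grey peaks did not pass. The Flt1 calls lie at -61.2 and 140 kb, while the 3 lower Nrp2 calls lie between 13.9 and 40.2 kb into the gene.

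The neuropilins differed in how the table assigned their peaks. Nrp1 had a single peak under its own name, over the promoter (chr8:128356715-128359930), with 97.5, 106, 100 and 107 CPM in MafLSEC-KO libraries, against 83.2, 96.8, 90.0 and 115 CPM in controls. The groups overlapped, and the log2 change was 0.09 ± 0.112 (adjusted p = 0.656). Another 13 peaks lay within the Nrp1 gene body by coordinates but carried the name of Mir1903, a microRNA gene inside Nrp1. Of these, all annotated to introns, 3 were higher, 1 was lower and 9 did not pass, where 9.45% of all intronic peaks were called higher and 7.27% lower. The largest of the higher ones by signal, in intron 6 of 16 (chr8:128450096-128451412), had 46.2 to 55.8 CPM in MafLSEC-KO libraries and 24.8 to 45.4 CPM in controls (log2 change 0.60, adjusted p = 0.0125). The lower one, in intron 12 (chr8:128491225-128491937), averaged 15.7 ± 1.17 CPM in MafLSEC-KO libraries and 25.4 ± 6.51 CPM in controls (log2 change -0.71, adjusted p = 0.0108). Summed over all 14 peaks, the Nrp1 gene body had 354 ± 22.7 CPM in MafLSEC-KO libraries and 322 ± 52.9 CPM in controls, and the difference did not pass (log2 change 0.14, adjusted p = 0.491). The gene body was examined after the names had been seen.

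Nrp2, the co-receptor that pairs with FLT4 for VEGFC, had 19 peaks over 265 kb, of which 6 lay upstream in introns of the neighbouring gene Pard3b. Its sum was 232, 236, 217 and 254 CPM in MafLSEC-KO libraries, against 222, 267, 203 and 338 CPM in controls. As for Flt4, the shallow control replicates 1 and 3 were at the low end of the 8 libraries and the deeper ones at the top. The log2 change was -0.14 ± 0.133 (edgeR adjusted p = 0.590). The sum leaves out 4 peaks inside the Nrp2 gene body that carried the name 4930487H11Rik. None of these passed (log2 changes -0.49 to 0.07, lowest edgeR adjusted p = 0.0821). With total count as a covariate, Nrp2 was called lower (log2 change -0.26, adjusted p = 0.013), as were 11.1% of all genes in that setting. The peak at the Nrp2 start site had the most counts and averaged 44.8 ± 6.39 CPM in MafLSEC-KO libraries and 41.2 ± 11.5 CPM in controls (adjusted p = 0.729).

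Inside Nrp2, 3 intronic peaks were lower and 1 was higher. The peak 17.2 kb downstream, in intron 2 of 16 (chr1:62720035-62721055), had 16.8, 13.6, 14.5 and 14.4 CPM in MafLSEC-KO libraries, against 19.8, 22.8, 16.4 and 29.7 CPM in controls. The log2 change was -0.60 ± 0.179 (adjusted p = 0.0269), and MafLSEC-KO replicate 1 was above control replicate 3. The peak 13.9 kb downstream, in intron 1 (chr1:62717041-62717393), had 0.738, 2.95, 1.57 and 3.16 CPM in MafLSEC-KO libraries, against 5.63, 3.61, 4.72 and 4.74 CPM in controls (log2 change -1.09 ± 0.356, adjusted p = 0.0449). The peak 40.2 kb downstream, in intron 3 (chr1:62743452-62743658), had 1.33, 1.66, 0.522 and 1.54 CPM in MafLSEC-KO libraries, against 2.54, 2.49, 2.97 and 4.22 CPM in controls (log2 change -1.28 ± 0.399, adjusted p = 0.0347). Neither of these last peaks had overlapping groups, but both rested on few reads, down to 5 in a MafLSEC-KO library. The higher peak, 44.5 kb downstream in intron 6 (chr1:62747506-62748171), had 17.6, 15.5, 13.5 and 13.7 CPM in MafLSEC-KO libraries, against 5.99, 10.7, 9.96 and 11.3 CPM in controls, with no overlap (log2 change 0.64 ± 0.198, adjusted p = 0.0333).

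All 4 Nrp2 calls depended on single libraries. The call at 17.2 kb was lost without MafLSEC-KO replicate 2, 3 or 4 or control replicate 2 or 4 (adjusted p up to 0.0957). The call at 13.9 kb was lost without MafLSEC-KO replicate 1, 2 or 3 or control replicate 1, 2 or 3 (up to 0.130). The call at 40.2 kb was lost without any MafLSEC-KO replicate or control replicate 2 or 4 (up to 0.110), and that at 44.5 kb without MafLSEC-KO replicate 1, 2 or 4 or control replicate 1, 2 or 3 (up to 0.117).

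Among the ligands, Vegfc had the largest number of peaks, 10 over 195 kb. Its sum was 116, 93.9, 112 and 88.4 CPM in MafLSEC-KO libraries, against 99.3, 91.0, 101 and 59.6 CPM in controls. The deepest library, control replicate 4, was the lowest, the opposite of its place at Flt4 and Nrp2. The log2 change was 0.23 ± 0.154 (edgeR adjusted p = 0.410), and with total count as a covariate Vegfc was called higher (log2 change 0.43, adjusted p = 0.000689). That setting called 13% of all genes higher, against 5.65% in the main fit. The broad peak that spans the Vegfc start site and runs into intron 1 of 6 (chr8:54076993-54079763) held 48.0% of the counts of the gene. It had 61.4, 49.6, 58.2 and 41.8 CPM in MafLSEC-KO libraries, against 41.6, 40.2, 41.4 and 27.0 CPM in controls. The lowest MafLSEC-KO library was just above the highest control, and the log2 change was 0.50 ± 0.154 (adjusted p = 0.0337). This was the only start-site peak of the 9 genes that passed.

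The other Vegfc calls rested on few reads. The peak 5.78 kb downstream in intron 1 (chr8:54083225-54083399) had 3.39, 1.57, 1.36 and 1.88 CPM in MafLSEC-KO libraries, against 0.727, 1.1195, 0.349 and 0.452 CPM in controls (log2 change 1.59 ± 0.512, adjusted p = 0.0415). It had 13 to 23 reads in MafLSEC-KO libraries and 2 to 9 reads in controls. The intergenic peak 107 kb upstream (chr8:53970861-53971074), over an L1 element of the LINE family, had 1.18, 0.737, 0.522 and 0.768 CPM in MafLSEC-KO libraries, against 1.82, 2.74, 3.14 and 1.20 CPM in controls (log2 change -1.46 ± 0.474, adjusted p = 0.0436). It had 5 to 9 reads in MafLSEC-KO libraries and 10 to 22 reads in controls, and reads in young repeats can be placed at more than one copy. The start-site call was lost without MafLSEC-KO replicate 1, 2 or 3 or control replicate 2 or 4 (adjusted p up to 0.131). The call at 5.78 kb was lost without any library but control replicate 2 (up to 0.159), and the call at 107 kb without MafLSEC-KO replicate 2, 3 or 4 or control replicate 2 or 3 (up to 0.139). The peak 87.8 kb downstream, with 4.87 CPM in MafLSEC-KO libraries and 2.72 CPM in controls on average, had groups that did not overlap and lay outside the threshold (adjusted p = 0.0731).

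Vegfa and Vegfb had few peaks and no call. The 2 Vegfa peaks summed to 55.7, 59.0, 61.0 and 59.0 CPM in MafLSEC-KO libraries, against 64.0, 55.6, 64.6 and 69.0 CPM in controls, and the groups overlapped (log2 change -0.11 ± 0.0981, adjusted p = 0.559). The start-site peak of Vegfa, over its first exon, averaged 35.0 ± 0.954 CPM in MafLSEC-KO libraries and 37.5 ± 3.77 CPM in controls (adjusted p = 0.634). The single Vegfb peak, at its promoter, had 14.5, 10.5, 11.1 and 12.8 CPM in MafLSEC-KO libraries, against 10.2, 12.3, 7.69 and 15.2 CPM in controls. These values overlapped, with a log2 change of 0.07 ± 0.206 (adjusted p = 0.860). Vegfd, the remaining ligand of FLT4, had 1 peak on the X chromosome, at 9.35 ± 1.32 CPM in MafLSEC-KO libraries and 10.4 ± 4.46 CPM in controls (adjusted p = 0.845).

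**Figure D4:**
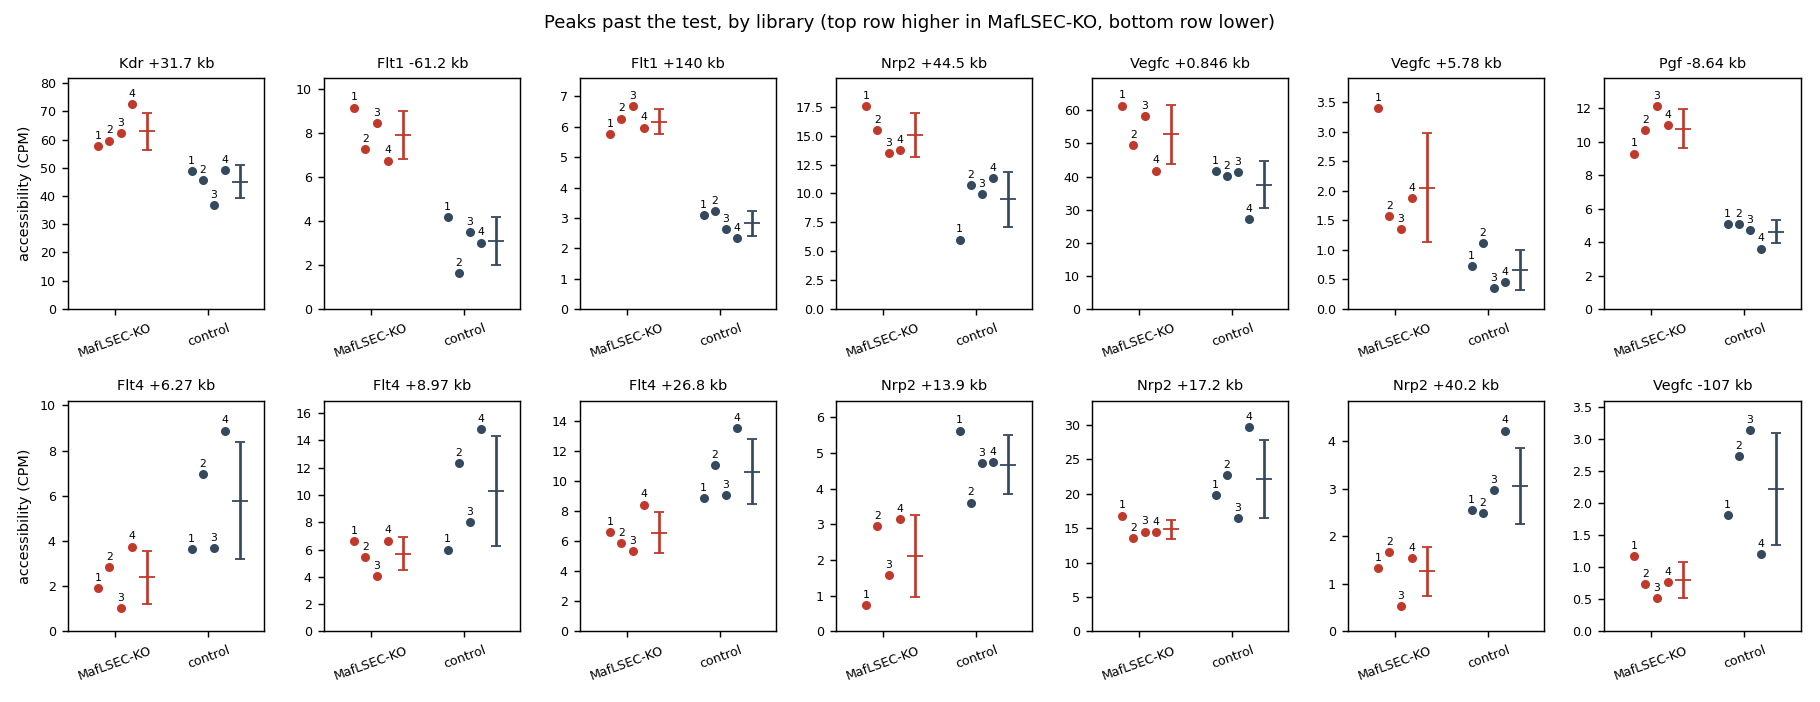
Accessibility in CPM (y axis) of the 14 peaks that passed the test, in the 4 MafLSEC-KO libraries (red, left) and the 4 control libraries (dark, right) of each panel. Points are libraries labelled by replicate number, bars are mean ± SD, and titles give the gene and the distance from its start site. The groups are farthest apart at the Pgf peak at -8.64 kb and the Flt1 peaks at -61.2 and 140 kb, and they overlap at the Flt4 peaks at 6.27 and 8.97 kb and the Nrp2 peak at 17.2 kb.

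Signal per kb of peak, on the CPM scale, was highest for Nrp1, at 31.6 ± 1.36 CPM per kb in MafLSEC-KO libraries and 30.2 ± 4.38 CPM per kb in controls. That value covers only the Nrp1 promoter peak, because the 13 other peaks in its gene body carried the name Mir1903. Sums of genes such as Kdr also took in intronic and intergenic peaks, so the place of Nrp1 is not a like-for-like ranking. Kdr had 25.4 ± 2.58 CPM per kb in MafLSEC-KO libraries and 24.3 ± 5.01 CPM per kb in controls. Flt1 at 23.5 ± 1.27, Nrp2 at 22.2 ± 1.43, Vegfa at 21.6 ± 0.812 and Flt4 at 18.6 ± 1.92 CPM per kb came next in MafLSEC-KO libraries. In this order Kdr and Flt1, Flt1 and Nrp2, and Nrp2 and Vegfa differed by less than the larger of their SDs, while Vegfa and Flt4 differed by more. At the low end in MafLSEC-KO libraries were Pgf at 15.9 ± 0.770, Vegfc at 15.4 ± 1.998 and Vegfb at 12.0 ± 1.85 CPM per kb. In controls Pgf was the lowest of the 9, at 10.6 ± 0.554 CPM per kb, beside Vegfb at 11.3 ± 3.19 and Vegfc at 13.2 ± 2.88 CPM per kb.

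Whether 2 members changed by different amounts was tested on the log2 ratio of their raw sums within each library, for 4 pairs, by an exact two-sided permutation test with 70 assignments of the 8 libraries to the groups. Its smallest possible p is 0.0286. For Pgf over Vegfa the log2 ratio was -1.16 ± 0.0579 in MafLSEC-KO libraries and -1.85 ± 0.129 in controls (SD, n = 4 each), a difference of 0.69, with every MafLSEC-KO library above every control (exact permutation p = 0.0286, the smallest possible; 0.114 adjusted over the 4 pairs). The ratio of Flt4 to Kdr was lower in MafLSEC-KO libraries by 0.25 on the log2 scale, at -2.04 ± 0.0681 in MafLSEC-KO libraries and -1.79 ± 0.165 in controls (exact permutation p = 0.0571, adjusted 0.114). Nrp2 against Nrp1 differed by -0.18 (exact permutation p = 0.114, adjusted 0.152) and Flt1 against Kdr by 0.04 (exact permutation p = 0.8, also after adjustment). None of the 4 pairs passed after adjustment, and with 4 pairs the smallest p of this design adjusts to 0.114 for a single pair, so that Pgf over Vegfa could not have passed alone.

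By annotation, the 5 promoter peaks of the members, those of Kdr, Flt1, Nrp1, Vegfb and Pgf, held no call, where 5.48% of all promoter peaks were called higher and 1.65% lower. The start-site peaks of Flt4, Nrp2, Vegfa and Vegfc fell in other classes of the table, with centres 0.109 to 0.846 kb downstream of the start site, in the first exon or intron. Of the 51 intronic peaks, 5 were higher and 6 lower, against 9.45% and 7.27% of all intronic peaks. Of the 27 intergenic peaks, 2 were higher and 1 was lower, against 10.2% and 7.63%. The 7 peaks in exons, UTRs or gene ends held no call, against 6.98% higher and 4.92% lower over all such peaks. The member peaks had a median width of 624 bp and a median GC content of 50.7%, near the 574 bp and 50.0% of all peaks.

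Motifs were counted in the 300-base windows at the centres of the 90 member peaks and of all peaks. The MAF half-site was in 24 of the 90 (26.7%), against 22.7% of all windows. ETS was in 25 (27.8%, against 17.5%), AP-1 in 17 (18.9%, against 11.5%), TEAD in 18 (against 14.3%) and the hypoxia motif in 19 (21.1%, against 17.3%). GATA was in 11 (12.2%, against 16.1%) and MEF2 in 2 (2.22%, against 4.42%), so these shares were below those of all windows and the others above. Of the 7 windows of peaks called lower, 4 held the MAF half-site, those of Flt4 at 8.97 and 26.8 kb and of Nrp2 at 17.2 and 40.2 kb. Of the 7 called higher, 1 held it, the Vegfc peak at 5.78 kb. AP-1 matches were in 2 of the 7 higher windows, which are the Flt1 and Pgf windows printed above, and in 3 of the 7 lower windows. The GATA and hypoxia motifs were in none of the 14 windows. In the 300-base RefSeq promoters of the 9 genes, which run from 250 bases before to 50 after a start site and cover 2 start sites each for Pgf and Vegfa, none of the 7 motifs occurred except ETS at Vegfc, GATA at one Vegfa start and the hypoxia motif at the other.

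The genes that carry, limit or answer the VEGF signal were taken from 6 lists, with 109 genes tested. Of these, 8 were higher (7.34%) and 6 lower (5.50%), beside the 5.65% and 4.05% of all genes, and their median log2 change was 0.01. In the relay behind the receptors, 5 of 43 genes were higher, 1 was lower and 37 did not pass. Hspb1, the small heat shock protein that p38 signaling phosphorylates downstream of KDR, was higher at 139 ± 21.7 CPM in MafLSEC-KO libraries and 87.0 ± 15.0 CPM in controls (log2 change 0.67, adjusted p = 0.00664). Src, the kinase that acts in VEGF-driven permeability, was at 40.0 ± 1.04 CPM in MafLSEC-KO libraries and 29.5 ± 3.02 CPM in controls (log2 change 0.44, adjusted p = 0.0241). Sphk1, Nfatc1 and the adaptor gene Nck2 were the other higher genes, with log2 changes of 0.52, 0.28 and 0.39 (edgeR adjusted p = 0.0242, 0.0271 and 0.0456). Prkcb, a protein kinase C gene, was lower at 57.1 ± 6.47 CPM in MafLSEC-KO libraries and 85.9 ± 10.3 CPM in controls (log2 change -0.60, adjusted p = 0.00542).

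Among 19 partners and brakes of the receptors, Gpc1, a heparan sulfate proteoglycan that binds VEGF, was lower at 54.5 ± 7.37 CPM in MafLSEC-KO libraries and 107 ± 5.21 CPM in controls (log2 change -0.97, adjusted p = 0.000121), and 18 did not pass. Cdh5 of this list is also a pan-endothelial marker. Of 23 response genes, Pdgfb, which recruits mural cells, and Egr3 were higher, Mmp14, a membrane-bound matrix protease, was lower, and 20 did not pass (median log2 change 0.11). Pdgfb had 53.1 ± 4.14 CPM in MafLSEC-KO libraries and 30.6 ± 5.95 CPM in controls (log2 change 0.79, adjusted p = 0.00271). For Egr3 and Mmp14 the log2 changes were 0.34 and -0.63 (adjusted p = 0.0147 and 0.00376). None of the 9 hypoxia regulators passed.

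The semaphorin and plexin list held the largest change. Sema3d, a class 3 semaphorin, was lower at 66.1 ± 2.34 CPM in MafLSEC-KO libraries and 173 ± 18.8 CPM in controls (log2 change -1.39, adjusted p = 5.54e-06). Sema3g, a semaphorin of arterial endothelium, was higher at 49.4 ± 6.23 CPM in MafLSEC-KO libraries and 32.6 ± 4.83 CPM in controls (log2 change 0.60, adjusted p = 0.0129), and 9 of the 11 genes did not pass. Of the 4 genes tested for VEGFC processing and VEGFD, Ccbe1 and Adamts14 were lower. CCBE1 is a cofactor for the cleavage that activates VEGFC, and Ccbe1 had 13.5 ± 1.84 CPM in MafLSEC-KO libraries and 20.5 ± 2.91 CPM in controls (log2 change -0.59, adjusted p = 0.0356). Adamts14, a protease gene related to Adamts3, had a log2 change of -0.55 (adjusted p = 0.0261). Calls for Src, Sphk1, Nfatc1, Egr3, Sema3g, Ccbe1 and Adamts14 were lost in 2 to 7 of the 8 fits that left out 1 library, with adjusted p up to 0.135, while those for Hspb1, Prkcb, Gpc1, Pdgfb, Mmp14 and Sema3d were kept in all 8. The Nck2 call was not followed through these fits.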

How the data were processed

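ATAC-seq libraries of LSECs (4 MafLSEC-KO, 4 control) were grouped by the genotype label. The study's methods state trimming, alignment to mm10, removal of duplicates, MACS2 peak calling, removal of blacklisted regions, merging and counting with bedtools, and HOMER annotation (HOMER 4.11, bedtools 2.30.0 and DESeq2 1.42.1 in the submitters' processing notes); no shift of reads for the transposase is named. Per the file headers, the deposited table gives raw counts per peak, RPKM, size-factor normalized signal, and the authors' log2 fold changes with their standard errors and test scores and p-values from DESeq2. Only the raw counts and the annotation were used, and the authors' comparison columns were not.

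Counts per peak, and their sums per gene name, were fitted with edgeR 4.0.16 in R 4.3.3 (TMM scaling, filterByExpr, group as the only term) and adjusted by Benjamini-Hochberg over all features. CPM are edgeR's, on TMM-scaled totals, and the 68 peaks without a gene name (0.077% of counts) were left out of gene sums. Start was read as 1-based, and all 58522 peaks lay within GRCm38. Peaks were merged over all libraries, so replicates share regions. Alternatives were other scalings, DESeq2 1.42.0, no filter, a replicate block, total count as a covariate, each library left out, and other sets of peaks. The fits were tried on simulated counts, in which small changes were often missed, so a feature that did not pass may still differ.

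The members and lists were chosen with earlier results of these data known. By rule, the text names all 9 genes, each called member peak, each promoter peak and the peak with most counts, up to 5 called genes with the smallest p per list, and the 3 genes most correlated with a called member. Nck2, the Nrp1 gene body, the uncalled peaks with groups apart and the start-site peaks outside the promoter class were named after their values were seen. So were the peaks inside Flt1 and Nrp2 that carried other gene names. The value of 1 marker gene is not reported here.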

Additional observations from a re-analysis of the deposited data

Results flagged for a closer look

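Within the groups of 4 libraries, 66 sets of values were examined for a library far from the others, and 2 stood out, where chance flags about 5% of such sets. At the Nrp2 peak 21.4 kb into the gene, MafLSEC-KO replicate 3 had 31.1 CPM, while the other MafLSEC-KO libraries had 37.8 to 38.5 CPM. At the Vegfc start-site peak, control replicate 4, the deepest library, had 27.0 CPM, while the other controls had 40.2 to 41.6 CPM.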

How the results depend on the processing

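Of 22 gene sums under 426 alternatives in all, 362 kept their direction and call, 39 lost it, 9 gained one and 16 turned direction, the last only for sums that did not pass. Of the 14 called peaks under 224 alternatives, 161 kept the call, 63 lost it and none turned. Member gene sums called higher numbered 2 in place of 1 with the replicate block, with log2 total count as a covariate and with both together (Pgf and Vegfc), where 12.2%, 13% and 8.85% of all genes were called higher, and 0 with promoter peaks only (2 at an unadjusted p under 0.05). Those called lower numbered 2 in place of 0 (Flt4 and Nrp2) with total count as a covariate, with block and total count, and without both shallow control libraries, a choice made after seeing the data, where 11.1%, 6.97% and 7.26% of all genes were called lower. Member peaks called higher numbered 15 with the replicate block, where 14.2% of all peaks were called higher. Member peaks called lower numbered 21 with total count as a covariate and 18 without the shallow controls, where 11.3% and 9.56% of all peaks were called lower. With 1 library left out, member peaks called higher numbered 4 to 10 and those called lower 0 to 8. The edgeR count of 0 lower was seen without MafLSEC-KO replicate 3 (10 at an unadjusted p under 0.05) and without control replicate 2 (11). The log2 change of Flt1 minus that of Kdr was 0.347 with promoter peaks only and -0.0271 to 0.134 with 1 library left out, the negative values coming from the fits that dropped control replicate 4 (-0.0124) or MafLSEC-KO replicate 3. The cause of these shifts was not tested.

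Same-numbered libraries deviated from their group means with correlations of 0.191, 0.0967, 0.257 and 0.442. Libraries of different number had correlations of -0.323 to 0.212. MafLSEC-KO replicate 2 and control replicate 1 did not correlate best with their own number. The numbers were not taken as pairs in the main fit, and whether same-numbered libraries were handled together was not tested. Sums that did not pass turned direction as follows. The Kdr gene sum was -0.0524 with total count as a covariate, -0.0302 with the replicate block and total count, -0.131 without the shallow controls, -0.0354 with promoter peaks only, and -0.0279 to 0.208 with 1 library left out. The Flt1 gene sum was -0.0743 with block and total count. The Nrp1 gene sum was -0.0243 with total count, -0.0208 with block and total count and -0.0649 without the shallow controls. The Nrp2 gene sum was -0.236 to 0.0219 with 1 library left out, the highest without control replicate 4. The Vegfb gene sum was -0.0414 with total count, -0.131 with block and total count, -0.207 without the shallow controls, and -0.0879 to 0.244 with 1 library left out. Counting the peaks of a gene body to its gene changed no member's call. Depth limits the peaks with few reads, such as the weaker Vegfc calls.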
